A study of Homo sapiens with 4 samples.

Results

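The genes described here encode the machinery of 4 DNA repair pathways: base excision repair, nucleotide excision repair, mismatch repair and end joining. They were taken by name from a fixed list, and all 38 listed genes were found among the 20263 genes of the count table: 17 for base excision, 9 for nucleotide excision, 5 for mismatch repair and 7 for end joining. RNA sequencing measured expression in MDA-MB-231, a long-established human line from a breast cancer of the triple-negative kind. One group received the compound YW-LF for 24 h (n = 2 libraries), and the other is labelled DMSO, the solvent (n = 2 libraries). The title of the series names YW-LF as derived from ribociclib, a drug against the kinases CDK4 and CDK6 that drive cells into the cycle. The labels state no dose, and both groups come from a cell line in culture with no genetic change named.

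Base excision repair removes small lesions such as uracil, oxidised or alkylated bases. A glycosylase cuts out the base, the endonuclease APEX1 opens the strand, and POLB, XRCC1 and LIG3 fill and seal the gap, with PARP1 and PARP2 sensing the nick. Nucleotide excision repair cuts out a short stretch around bulky lesions, such as those made by ultraviolet light. Mismatch repair corrects errors of DNA replication: MutS proteins bind the mismatch and MutL proteins trigger excision. End joining religates broken ends: Ku (XRCC5 and XRCC6) binds them, the kinase PRKDC joins Ku, and LIG4 with XRCC4 and NHEJ1 seals the break.

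The 4 libraries held 34774542 to 40218240 counts, and no library of a group was a copy of the other. Values below are CPM, read counts of a gene scaled to library size and by the trimmed mean of M-values (TMM), and are listed as DMSO replicate 1, DMSO replicate 2, YW-LF replicate 1 and YW-LF replicate 2. The YW-LF libraries correlated with each other at r = 0.907 across 13816 genes in log2 CPM and the DMSO libraries at 0.976 (genes are not independent replicates). The first YW-LF library lay nearer to DMSO (0.922 and 0.911) than to its own replicate. The share of counts from mitochondrial genes was 8.68% and 21.7% in DMSO against 3.14% and 6.58% in YW-LF, and its part in the results was not tested; the calls without these genes are given with the alternatives. Of the markers of the line, the mesenchymal gene VIM was at 2645 to 3682 CPM (markers are scaled by library size only). The oestrogen receptor gene ESR1 was at 0.108 to 0.821 CPM, the epithelial cadherin gene CDH1 at 0 to 0.323 CPM and the lymphocyte gene CD3E at 0. Other listed genes of luminal or HER2 breast cells were not all low: KRT8 was at 227 to 363 CPM, KRT18 at 87.8 to 270 and ERBB2 at 25.3 to 86.5. PGR, GATA3 and FOXA1 were at 0.19 to 19.0 CPM. Of the other epithelial genes, EPCAM was at 5.91 to 9.49 CPM and CLDN4 at 0.651 to 58.5 CPM. The macrophage gene CD68, also expressed outside leukocytes, was at 160 to 295 CPM, with the leukocyte gene PTPRC at 0.081 to 0.721 CPM. In bulk RNA, fewer cells of a type and less RNA per cell cannot be told apart. Whether the replicates were separate cultures is not stated, and each p-value therefore reflects only how far these libraries spread, possibly for technical reasons.

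As a list, the repair genes showed no common direction. In 10 of 38 genes the YW-LF libraries were both above the DMSO pair (26.3%, against 28% of all genes tested) and in 10 both below it (26.3%, against 27.8%), and the groups overlapped in 18. The median log2 fold change was -0.11, against 0.06 over all genes tested. At an unadjusted p under 0.05, 5 members were higher (13.2%, against 11.5% of all genes) and 5 lower (13.2%, against 9.01%). After Benjamini-Hochberg adjustment across the table, the quasi-likelihood test of edgeR called 0 members, and 0 of 13816 genes higher (0%) and 0 lower (0%). DESeq2, the other count model, called 2 members higher (MPG and LIG4; 5.95% of all genes it adjusted were called higher) and 3 lower (NEIL3, PARP1 and MSH6; 4.41% were called lower). With the replicate number as a block, edgeR called 0 members (1.35% of all genes higher and 1.05% lower), and with every gene of at least 1 count tested it also called 0 members (0.927% and 0.718%). The block together with a correction for gene length and GC content called LIG4 higher (4.62% of all genes were called higher) and MSH6, NEIL3, PARP1, PARP2 and UNG lower (4.02% lower).

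**Figure D1:**
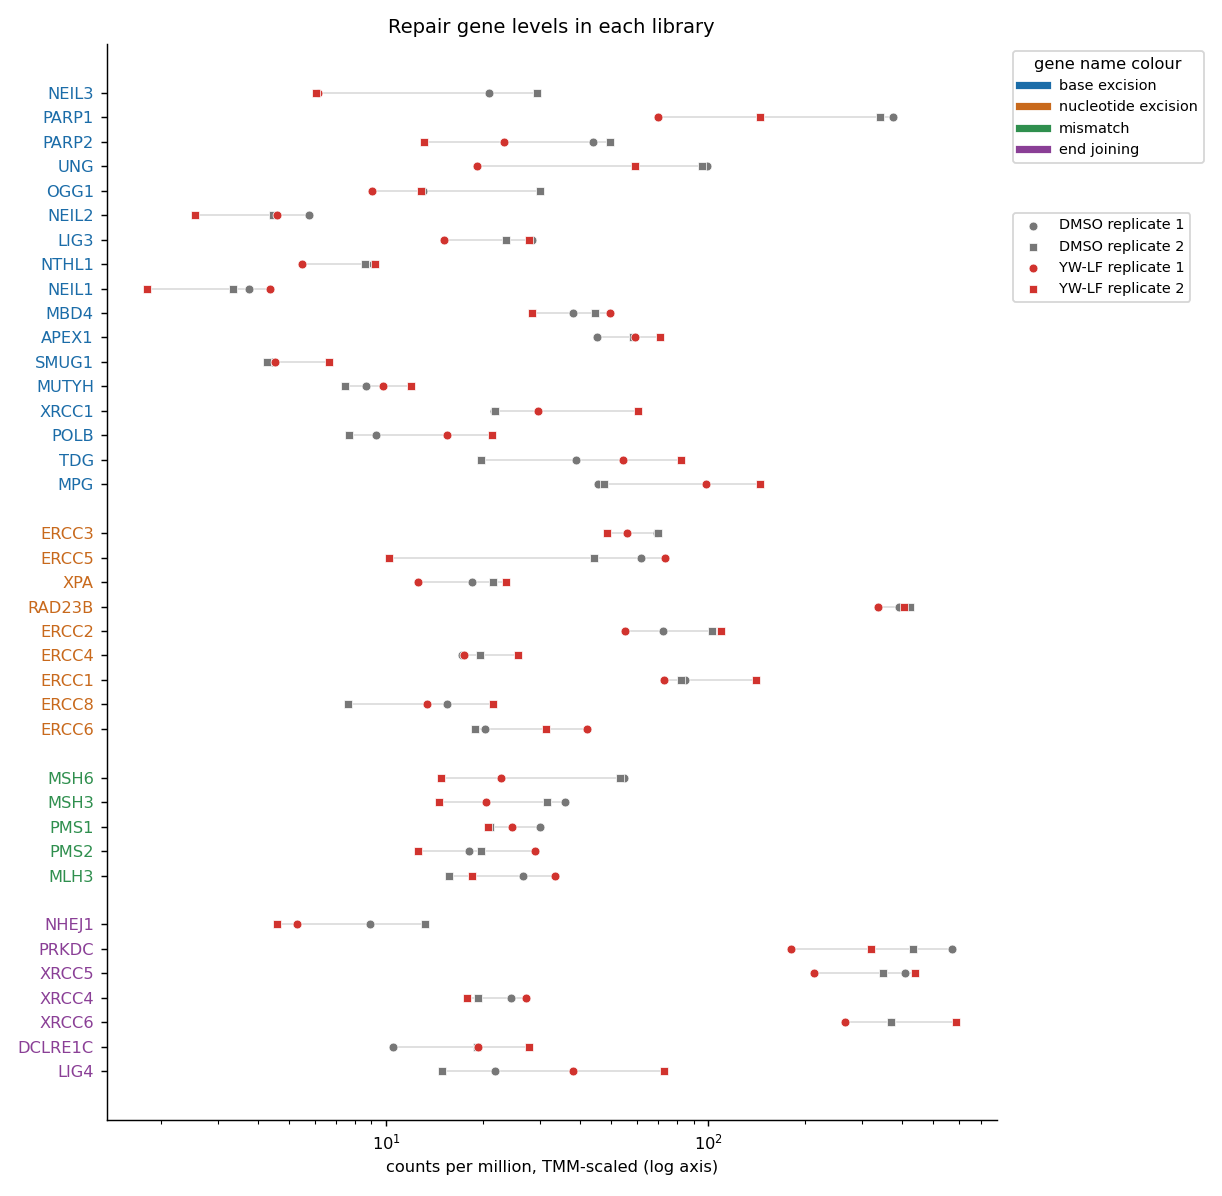
Level of each repair gene in the 4 libraries (x axis, TMM-scaled CPM, log axis; y axis, genes grouped by pathway and ordered by log2 fold change). Grey points are DMSO and red points YW-LF, circles replicate 1 and squares replicate 2; NEIL3, PARP1, PARP2 and MSH6 have both red points left of both grey points, and MPG and LIG4 have them to the right.

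In base excision repair, 7 of 17 genes lay above DMSO (41.2%, against 28% of all genes tested) and 5 below (29.4%, against 27.8%), and 8 of 17 had a fold change of at least 2 (47.1%, against 30.6%). Its median absolute log2 fold change was 0.98 (0.64 over all genes tested). In nucleotide excision repair, 1 of 9 genes lay above and 1 below (11.1% each), 7 overlapped, and 0 of 9 reached 2-fold, with a median absolute log2 fold change of 0.34. In mismatch repair, 2 of 5 genes lay below DMSO (40%) and 0 above. In end joining, 2 of 7 lay above and 2 below (28.6% each), which is near the share of all genes. The median signed log2 fold changes were -0.20 in base excision, -0.08 in nucleotide excision, -0.17 in mismatch repair and 0.04 in end joining. They depended on the treated library: when YW-LF replicate 1 was dropped they were 0.055 in base excision, 0.32 in nucleotide excision and -0.60 in mismatch repair, and when replicate 2 was dropped they were 0.048 in base excision and -0.48 in end joining. These are descriptions of the lists, and no difference between pathways was tested.

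**Figure D2:**
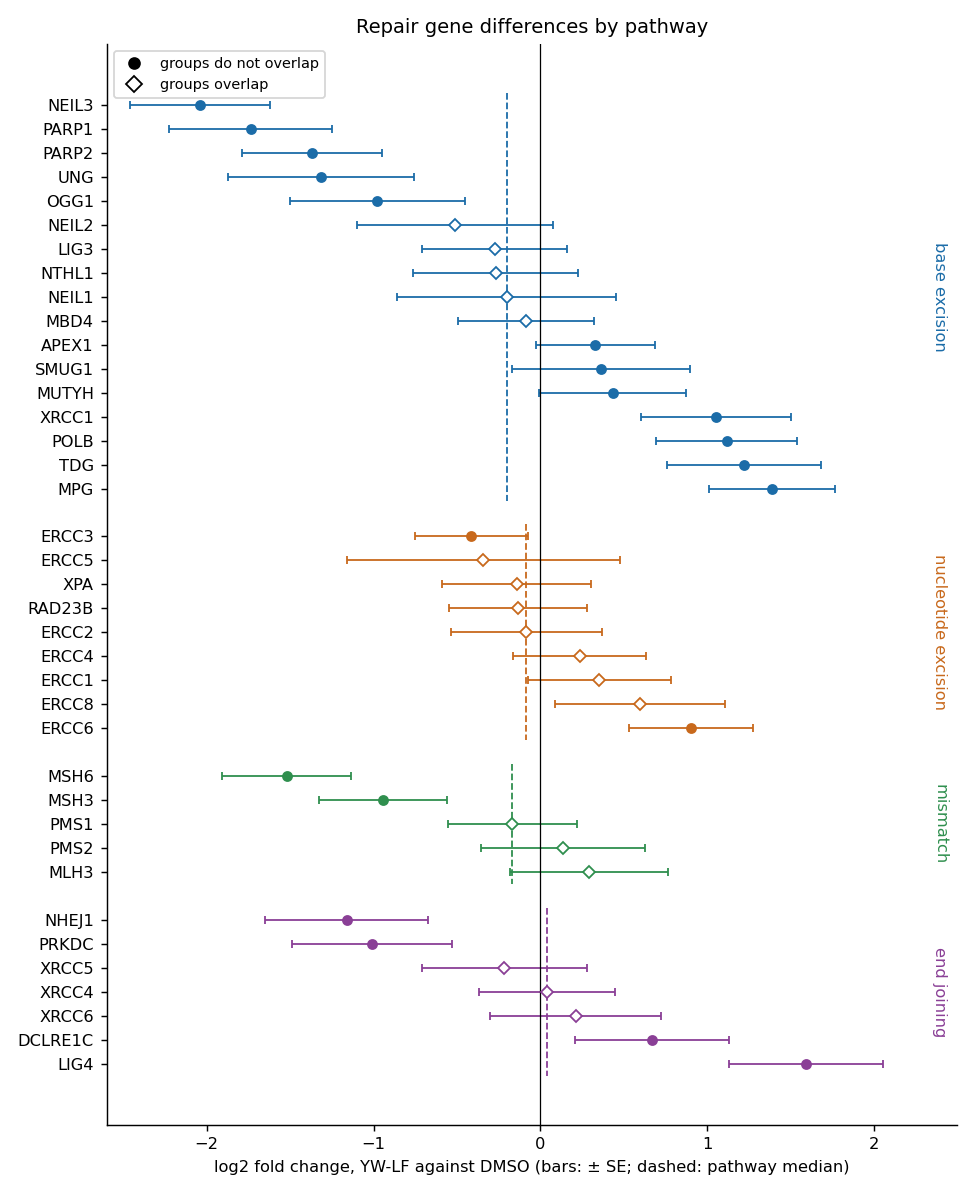
Log2 fold change of each repair gene, YW-LF against DMSO (x axis; points with bars of ± 1 standard error from edgeR), by pathway (y axis). Filled circles mark genes whose groups do not overlap and open diamonds those that overlap; the dashed line is the pathway's median. Base excision genes span -2.04 to 1.39, and nucleotide excision genes -0.41 to 0.90.

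The promoters of the members lowest against DMSO are shown, with E2F-type letters and those of the cell cycle homology region marked. Both are textbook elements of genes that follow the cell cycle. Whether they bear on the levels measured here was not tested. Each sequence runs from 120 bases before to 15 after the RefSeq start, 5′ to 3′ on the gene's strand (GRCh38.p14), and capitals mark the letters TTTNGCGC or TTTCCCGC (E2F-type) and TTTGAA or TTCGAA (homology region) on either strand. NEIL3 (chr4:177309754-177309888, plus strand), MSH6 (chr2:47783025-47783159, plus strand), PARP1 (chr1:226408079-226408213, minus strand) and PARP2 (chr14:20343515-20343649, plus strand) were the 4 lowest by p with an entry, and MSH3 (chr5:80654532-80654666, plus strand) was added after its match was seen.
NEIL3: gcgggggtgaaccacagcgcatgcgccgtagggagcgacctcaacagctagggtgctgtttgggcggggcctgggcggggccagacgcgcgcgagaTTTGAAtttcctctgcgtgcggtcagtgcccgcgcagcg
MSH6: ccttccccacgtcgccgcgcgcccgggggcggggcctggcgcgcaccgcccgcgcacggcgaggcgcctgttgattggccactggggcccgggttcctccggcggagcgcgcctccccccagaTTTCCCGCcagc
PARP1: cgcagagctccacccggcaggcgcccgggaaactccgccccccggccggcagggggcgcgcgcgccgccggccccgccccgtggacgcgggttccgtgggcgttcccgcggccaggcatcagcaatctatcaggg
PARP2: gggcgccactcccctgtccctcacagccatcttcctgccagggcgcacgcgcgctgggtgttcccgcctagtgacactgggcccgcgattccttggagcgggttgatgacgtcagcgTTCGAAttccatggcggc
MSH3: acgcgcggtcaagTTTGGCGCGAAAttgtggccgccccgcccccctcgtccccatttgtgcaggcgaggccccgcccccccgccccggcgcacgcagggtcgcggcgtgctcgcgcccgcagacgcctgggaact

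In the full promoter windows of 250 bases before to 50 after the start, 33 members had an entry. An E2F-type match was found in 2 of 9 members below DMSO (MSH3 and MSH6), 0 of 8 above and 1 of 16 that overlapped (XRCC6). Over all 33 members with an entry 9.09% held one, against 3.43% of all 27305 promoters and 5.37% of the 10998 promoters of genes tested. In MSH3 the letters TTTGGCGC begin 107 bases before the start and overlap a match on the other strand, and in MSH6 TTTCCCGC begins at base 4 after it. TTTGAA, held by 15.4% of all promoters and 9.87% of those of genes tested, was in NEIL3 (24 bases before the start) and XRCC1. TTCGAA (1.45% of all promoters and 1.71% of those of genes tested) was in PARP2, across the start itself. The PARP1 window held none of these letters.

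Among the 11 DNA glycosylases of base excision repair, 4 lay above DMSO (36.4%, against 28% of all genes tested), 3 below (27.3%, against 27.8%) and 4 overlapped. NEIL3, a glycosylase for oxidised bases that is known to be expressed in dividing cells, had the lowest p of all members. Its level was 20.9 and 29.5 CPM under DMSO and 6.17 and 6.09 CPM under YW-LF. The YW-LF libraries nearly coincided, and both lay far below DMSO, a 4.11-fold lower level (log2 fold change -2.04, SE 0.42). Its adjusted p was 0.121 in edgeR and 0.0019 in DESeq2, and ranged from 0.0019 to 0.185 over the alternatives that kept all 4 libraries. NEIL3 (ENSG00000109674), whose promoter holds the TTTGAA printed above, lies on chromosome 4, 177309836 to 177362943, in the GENCODE 29 annotation of GRCh38.

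UNG, the main uracil glycosylase, stood at 99.0 and 95.6 CPM under DMSO and at 19.2 and 59.2 CPM under YW-LF. Both treated libraries were below DMSO, but they differed 3.08-fold from each other (log2 fold change -1.31, SE 0.56, adjusted p = 0.249 by edgeR). OGG1, which removes 8-oxoguanine, was at 13.0 and 30.0 CPM under DMSO and 9.03 and 12.9 CPM under YW-LF. For OGG1 the gap between the DMSO libraries (2.30-fold) was wider than the distance from the nearer DMSO library to YW-LF. UNG and OGG1 lie outside the naming rule and were singled out after their values were seen, as were the other members below with values for all libraries that the rule does not name.

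MPG, the glycosylase for alkylated purines, went the other way. It was at 45.5 and 47.3 CPM under DMSO and 98.4 and 145 CPM under YW-LF, so both treated libraries were at least 2-fold above either DMSO library. The log2 fold change was 1.39 (SE 0.38; 2.62-fold higher), with an adjusted p of 0.140 in edgeR and 0.036 in DESeq2 (0.036 to 0.176 over the alternatives that kept all libraries). MPG (ENSG00000103152) spans chromosome 16, 77007 to 85853, and its exons overlap those of NPRL3 on the opposite strand. Reads from both genes cannot be told apart unless the counting used strand, which the sources used here do not state. NPRL3 lay below DMSO, at 50.9 and 64.8 CPM under DMSO and 31.8 and 31.0 CPM under YW-LF.

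TDG, which removes thymine or uracil paired with guanine and acts in DNA demethylation, was at 38.9 and 19.8 CPM under DMSO and 54.5 and 82.1 CPM under YW-LF. Its groups did not overlap, though the DMSO libraries themselves differed (log2 fold change 1.22, SE 0.46, adjusted p = 0.217 by edgeR). The second enzyme for such pairs, MBD4, overlapped between the groups, at 38.1 and 44.6 CPM under DMSO and 49.6 and 28.5 CPM under YW-LF. MUTYH, which removes adenine opposite 8-oxoguanine, and SMUG1, another uracil glycosylase, lay just above DMSO, with log2 fold changes of 0.43 (SE 0.44) and 0.36 (SE 0.53). NEIL1, NEIL2 and NTHL1, glycosylases for oxidised pyrimidines, overlapped between the groups, with log2 fold changes from -0.51 to -0.20.

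After the glycosylase step, the nick sensor genes PARP1 and PARP2 lay below DMSO, and the members POLB, XRCC1 and LIG3 did not. PARP1, the main poly(ADP-ribose) polymerase, was at 375 and 342 CPM under DMSO and 69.8 and 145 CPM under YW-LF. Both treated libraries were far below DMSO, with YW-LF replicate 1 the lower (log2 fold change -1.74, SE 0.49; 3.33-fold lower). Its adjusted p was 0.146 in edgeR and 0.012 in DESeq2 (0.012 to 0.169 over the alternatives that kept all libraries). PARP2, its close relative, was at 44.0 and 49.6 CPM under DMSO and 23.2 and 13.1 CPM under YW-LF. Here YW-LF replicate 2 was the lower library (log2 fold change -1.37, SE 0.42; 2.58-fold lower, adjusted p = 0.162 by edgeR and 0.059 by DESeq2, 0.027 to 0.355 over the alternatives that kept all libraries). PARP1 (ENSG00000143799) lies on chromosome 1, 226360691 to 226408079, and PARP2 (ENSG00000129484) on chromosome 14, 20343582 to 20357905.

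POLB, the gap-filling polymerase, stood at 9.29 and 7.65 CPM under DMSO and 15.5 and 21.3 CPM under YW-LF. XRCC1, the scaffold that PARP activity recruits, stood at 21.7 and 21.8 CPM under DMSO and 29.6 and 60.6 CPM under YW-LF. Both were above DMSO in both libraries, with log2 fold changes of 1.12 (SE 0.42) and 1.05 (SE 0.45) and edgeR adjusted p-values of 0.215 and 0.249. For XRCC1 the distance rests mainly on YW-LF replicate 2, since the log2 fold change was 0.43 without that library. LIG3, the ligase that XRCC1 binds, overlapped between the groups, at 28.3 and 23.6 CPM under DMSO and 15.2 and 27.8 CPM under YW-LF. APEX1 was at 45.2 and 58.5 CPM under DMSO and 59.1 and 71.1 CPM under YW-LF, so the groups were barely separated (log2 fold change 0.33, SE 0.36).

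In nucleotide excision repair, ERCC6 lay farthest from DMSO. ERCC6 is the CSB protein, which acts where RNA polymerase stalls at a lesion. It was at 20.3 and 18.9 CPM under DMSO and 42.0 and 31.3 CPM under YW-LF, with no overlap (log2 fold change 0.90, SE 0.37; 1.87-fold higher, adjusted p = 0.240 by edgeR). ERCC8, the CSA protein of the same transcription-coupled branch, overlapped between the groups, at 15.4 and 7.62 CPM under DMSO and 13.4 and 21.5 CPM under YW-LF. ERCC3, the XPB helicase of the factor TFIIH, was the only member of the pathway with both YW-LF libraries below DMSO, at 69.5 and 69.6 CPM under DMSO and 56.0 and 48.4 CPM under YW-LF (log2 fold change -0.41, SE 0.34). The other TFIIH helicase gene, ERCC2, was at 72.2 and 103 CPM under DMSO and 55.3 and 110 CPM under YW-LF, spanning the DMSO range.

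The damage recognition gene RAD23B, whose protein stabilises the lesion sensor, was at 391 and 422 CPM under DMSO and 337 and 404 CPM under YW-LF (log2 fold change -0.13, SE 0.41). It had the highest level per transcript length of its pathway, 94.3 CPM per kilobase as the mean of the 4 libraries, after XRCC6 (147) and just above XRCC5 (93.7) among all members. XPA, which verifies the lesion, and ERCC4, the XPF nuclease, overlapped between the groups, with log2 fold changes of -0.14 and 0.24. ERCC1, the partner of XPF, was at 84.6 and 82.4 CPM under DMSO and 72.8 and 141 CPM under YW-LF. The treated libraries of ERCC1 lay on either side of DMSO, and its log2 fold change of 0.35 became -0.21 without YW-LF replicate 2.

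ERCC5, the XPG nuclease, had the widest gap between the treated libraries of any member: 62.0 and 44.3 CPM under DMSO, 73.6 CPM under YW-LF replicate 1 and 10.2 CPM under YW-LF replicate 2, a ratio of 7.19. The table also counts BIVM-ERCC5, a read-through gene annotated over the same exons. BIVM-ERCC5 was at 0.454, 0.0598 and 2.19 CPM in the first 3 libraries and at 33.4 CPM under YW-LF replicate 2. The upstream gene BIVM was at 31.0, 24.1, 21.8 and 0 CPM. The sum of ERCC5 and BIVM-ERCC5 was 62.4 and 44.3 CPM under DMSO and 75.8 and 43.6 CPM under YW-LF, so the treated libraries of the sum spanned the DMSO libraries. With BIVM added, the sum was 93.4 and 68.5 CPM under DMSO and 97.6 and 43.6 CPM under YW-LF. YW-LF replicate 2 then lay farther below both DMSO libraries. The value of ERCC5 alone is therefore uncertain. Its log2 fold change was -0.34 (SE 0.82), -2.38 when YW-LF replicate 1 was dropped and 0.46 when replicate 2 was.

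**Figure D3:**
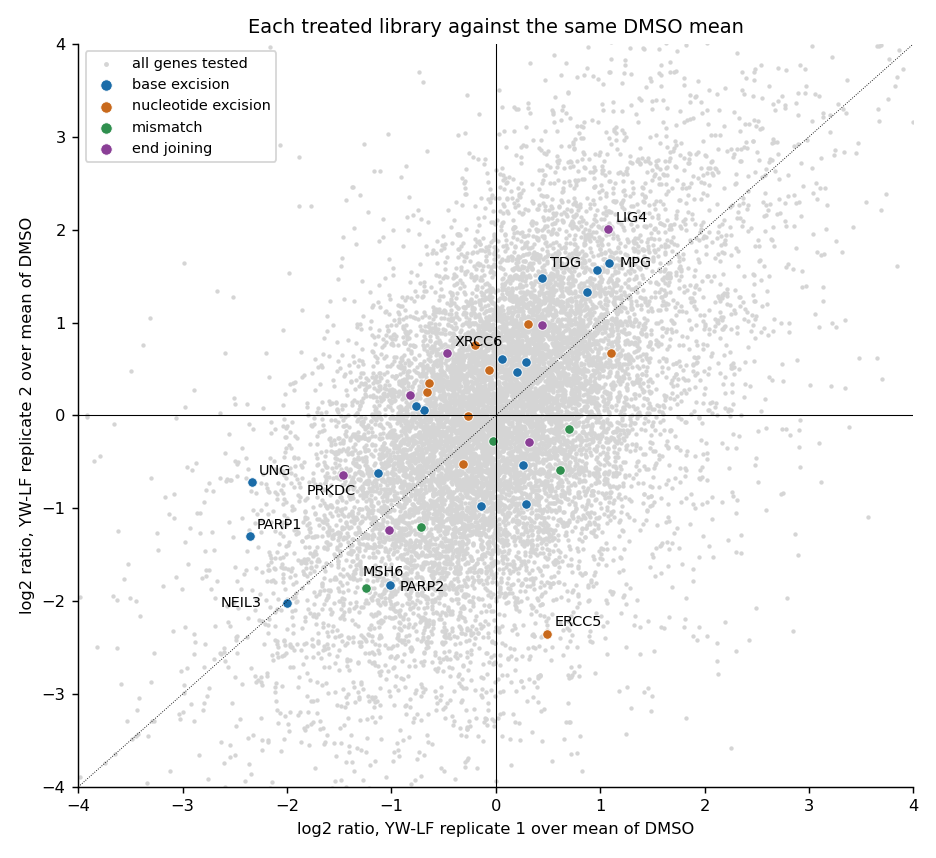
Log2 ratio of YW-LF replicate 1 (x axis) and YW-LF replicate 2 (y axis) to the mean log2 CPM of the DMSO libraries. Grey points are those of the 13816 genes tested that lie within the axes, coloured points the 38 repair genes by pathway, and the dotted line marks equal ratios; both axes share the DMSO mean and end at 4 in either direction. NEIL3, PARP1, PARP2 and MSH6 lie low on both axes, MPG and LIG4 high on both, and ERCC5 stands apart with a low ratio in YW-LF replicate 2 only.

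In mismatch repair, the MutS genes lay below DMSO and the MutL genes overlapped with it. MSH6, which recognises base mismatches and short loops, was at 54.8 and 53.2 CPM under DMSO and 22.8 and 14.8 CPM under YW-LF. The DMSO libraries agreed closely and both treated libraries were less than 50% of them (log2 fold change -1.52, SE 0.39; 2.87-fold lower). Its adjusted p was 0.131 in edgeR and 0.024 in DESeq2 (0.024 to 0.278 over the alternatives that kept all libraries). MSH3, which recognises larger loops, was at 35.9 and 31.6 CPM under DMSO and 20.5 and 14.6 CPM under YW-LF, with no overlap (log2 fold change -0.94, SE 0.38; 1.92-fold lower, adjusted p = 0.238 by edgeR). Both promoters hold E2F-type letters in the sequences printed above. MSH6 (ENSG00000116062) is annotated on chromosome 2, 47695530 to 47810101, and MSH3 (ENSG00000113318) on chromosome 5, 80654648 to 80876460.

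The exons of MSH6 overlap those of FBXO11 on the opposite strand, which was not below DMSO, at 58.6 and 51.9 CPM under DMSO and 74.8 and 53.2 CPM under YW-LF.

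The MutL genes PMS2, PMS1 and MLH3 had log2 fold changes of 0.14 (SE 0.49), -0.17 (SE 0.39) and 0.29 (SE 0.48). PMS2, the nuclease subunit of the main MutL complex, was at 18.2 and 19.7 CPM under DMSO and 29.1 and 12.5 CPM under YW-LF, on either side of the controls. PMS2 has near-identical pseudogene copies, so its count is uncertain. PMS1, with the highest level per transcript length of the pathway (7.47 CPM per kilobase), was at 30.0 and 21.0 CPM under DMSO and 24.7 and 20.7 CPM under YW-LF. MLH3, which acts in meiosis and in some somatic repair, was at 26.7 and 15.6 CPM under DMSO and 33.4 and 18.5 CPM under YW-LF. In all 5 mismatch repair genes YW-LF replicate 2 was the lower treated library, whereas 12 of 17 base excision genes were higher in YW-LF replicate 2 (49.5% of all genes tested were higher there).

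In end joining, genes whose proteins act in one ligase complex lay on different sides of DMSO. LIG4, the ligase of the pathway, was at 21.8 and 14.9 CPM under DMSO and 38.1 and 72.8 CPM under YW-LF. Both treated libraries were above DMSO, replicate 2 by more (log2 fold change 1.59, SE 0.46; 3.02-fold higher). Its adjusted p was 0.151 in edgeR and 0.030 in DESeq2 (0.030 to 0.214 over the alternatives that kept all libraries). XRCC4, which holds LIG4, overlapped between the groups, at 24.5 and 19.3 CPM under DMSO and 27.1 and 17.9 CPM under YW-LF. NHEJ1 (XLF), which aligns the ends with XRCC4, was at 8.95 and 13.2 CPM under DMSO and 5.31 and 4.60 CPM under YW-LF, below DMSO in both libraries (log2 fold change -1.16, SE 0.49, adjusted p = 0.246 by edgeR). LIG4 (ENSG00000174405) lies on chromosome 13, 108207439 to 108218368.

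The genes of the DNA-dependent protein kinase were lowest in YW-LF replicate 1. PRKDC, its catalytic subunit, was at 572 and 432 CPM under DMSO and 181 and 319 CPM under YW-LF, below DMSO in both (log2 fold change -1.01, SE 0.48, adjusted p = 0.288 by edgeR). XRCC6 (Ku70) was at 368 and 369 CPM under DMSO, and YW-LF replicate 1 lay below these at 266 CPM while replicate 2 lay above at 588 CPM. XRCC5 (Ku80) had the same order, with 409 and 348 CPM under DMSO and 213 and 439 CPM under YW-LF. The log2 fold change of XRCC6 was 0.21 and that of XRCC5 -0.22, and both depended on which treated library was used: 0.67 and 0.21 when YW-LF replicate 1 was dropped, and -0.48 and -0.84 when replicate 2 was. DCLRE1C (Artemis), the nuclease that opens hairpin ends, was at 10.5 and 19.1 CPM under DMSO and 19.3 and 27.8 CPM under YW-LF, with YW-LF replicate 1 almost level with DMSO replicate 2.

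As over the whole table, the treated libraries lay farther apart than the DMSO libraries in most repair genes. Of the 38 members, 8 differed at least 2-fold between the YW-LF libraries (21.1%, against 36.7% of all genes tested) and 2 between the DMSO libraries (5.26%, against 6.79%). The wider gap was in YW-LF in 30 members (78.9%, against 75.9% of all genes tested). When YW-LF replicate 1 was left out, edgeR called 6 members higher (15.8%, against 21% of all genes) and 7 lower (18.4%, against 20.7%). When YW-LF replicate 2 was left out, it called 3 higher (7.89%, against 10.1%) and 6 lower (15.8%, against 10.2%). The remaining YW-LF library is then assumed to vary like the DMSO pair. NEIL3, PARP1, PARP2 and MSH6 were called lower in both of these fits (10.5% of members, against 6.19% of the genes tested in both), and MPG and LIG4 higher in both (5.26%, against 5.56%). These fits share the DMSO libraries. With either DMSO library left out, edgeR called 0 members after adjustment. Without DMSO replicate 1 it called 0.318% of all genes higher and 0.194% lower, and without DMSO replicate 2 it called 0.332% and 0.111%. At an unadjusted p under 0.05 there were 3 members in the first of these fits (7.89%, against 7.89% of all genes) and 2 in the second (5.26%, against 6.87%).

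A further 52 genes of the pathways, partners listed from textbook knowledge, were all tested. Each was placed in a single pathway, for example PCNA in base excision, the polymerase delta genes in mismatch repair and RPA3 in nucleotide excision. A gene that serves several pathways was not counted in each, so the shares and medians below depend on this placement. Of 10 base excision partners, 6 lay below DMSO (60%) and 2 above (20%), with a median log2 fold change of -0.83, and of 10 mismatch repair partners 6 lay below (60%) and 0 above, with a median of -0.53. Of 18 nucleotide excision partners, 8 lay above (44.4%), 3 below (16.7%) and 7 overlapped (median 0.25). Of 14 end joining partners, 6 lay above (42.9%), 3 below (21.4%) and 5 overlapped (median 0.34). Over all partners, 16 lay above DMSO (30.8%, against 28% of all genes tested) and 18 below (34.6%, against 27.8%). At an unadjusted p under 0.05, 8 were higher (15.4%, against 11.5%) and 6 lower (11.5%, against 9.01%). After adjustment edgeR called 0 partners, as it called 0 of all genes tested. DESeq2 called 2 of the 52 higher (GTF2H3 and RPA3), and 5.95% of all genes it adjusted were called higher. It called 3 of the 52 lower (PCNA, EXO1 and POLD3), and 4.41% of all genes were called lower. No difference between these lists was tested.

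PCNA, the sliding clamp of DNA replication and repair, was at 216 and 215 CPM under DMSO and 63.9 and 21.8 CPM under YW-LF (log2 fold change -2.33, SE 0.57; adjusted p = 0.127 by edgeR and 0.0011 by DESeq2). EXO1, the nuclease of mismatch excision, was at 65.1 and 53.9 CPM under DMSO and 16.4 and 18.5 CPM under YW-LF (-1.77, SE 0.36; adjusted p = 0.121 by edgeR and 0.0044 by DESeq2). The DNA polymerase delta genes POLD3 and POLD1 had log2 fold changes of -1.88 (SE 0.44) and -1.38 (SE 0.41), with DESeq2 adjusted p-values of 0.0056 and 0.057. In each of these 4 genes the groups did not overlap. The other genes of polymerase delta overlapped with DMSO: POLD2 had a log2 fold change of 0.22 (SE 0.62) and POLD4 of 1.08 (SE 0.58).

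On the other side, GTF2H3, a subunit of TFIIH, was at 54.7 and 35.4 CPM under DMSO and 107 and 200 CPM under YW-LF (log2 fold change 1.77, SE 0.47; adjusted p = 0.136 by edgeR and 0.011 by DESeq2). POLL, a gap-filling polymerase of end joining, was at 13.7 and 12.0 CPM under DMSO and at 28.7 CPM in each YW-LF library (1.16, SE 0.37; adjusted p = 0.171 by edgeR and 0.103 by DESeq2). RPA3, a subunit of the single-strand binding protein RPA, lies outside the naming rule and was at 25.8 and 19.99 CPM under DMSO and 37.97 and 146 CPM under YW-LF (2.005, SE 0.65; adjusted p = 0.175 by edgeR and 0.017 by DESeq2). The groups did not overlap in any of the 3, and for RPA3 the second YW-LF library was by far the highest. RPA1 and RPA2, the other subunits, lay below DMSO, with log2 fold changes of -0.98 (SE 0.43) and -0.37 (SE 0.34).

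**Figure D4:**
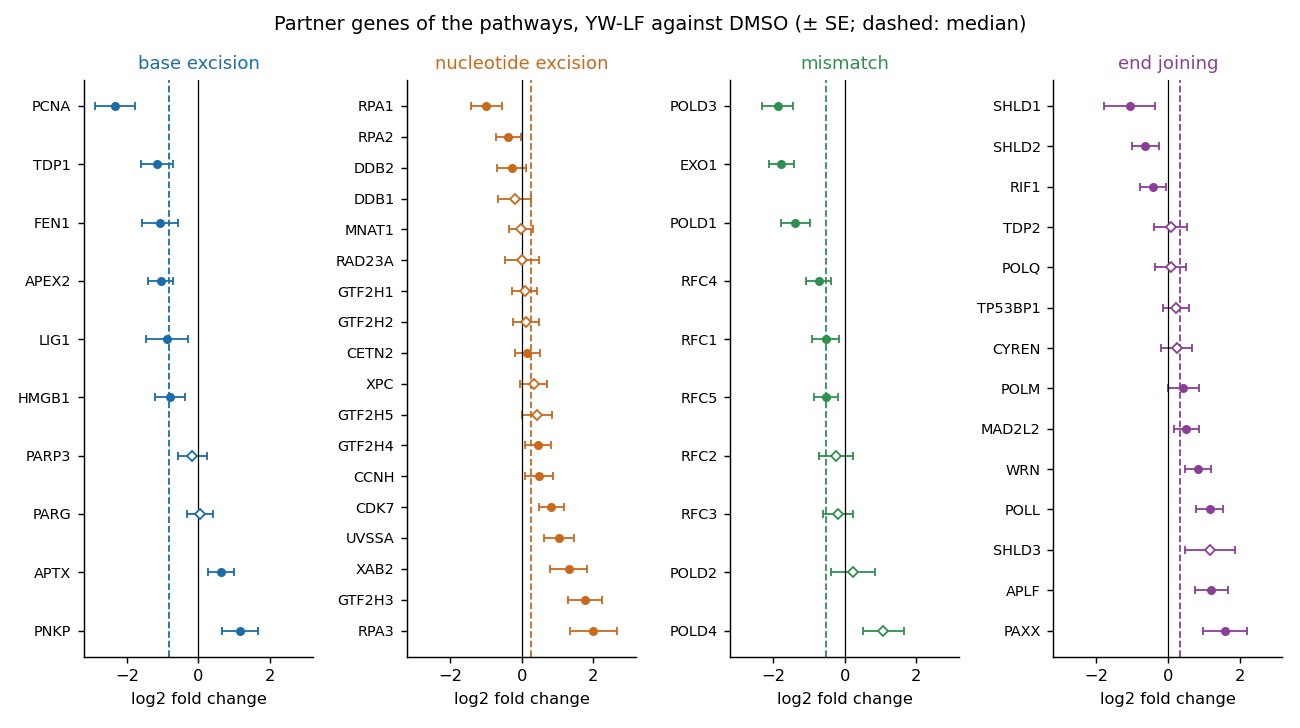
Log2 fold change of 52 partner genes of the 4 pathways, YW-LF against DMSO (x axis, with bars of ± 1 standard error), by gene (y axis). Each gene was placed in a single pathway, also where it serves several. Filled circles mark groups that do not overlap, open diamonds those that do, and dashed lines the medians; most base excision and mismatch partners lie left of 0 (medians -0.83 and -0.53), and most nucleotide excision and end joining partners right of it (0.25 and 0.34).

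The 10 members below DMSO had a median GC content of 45.6% (40.8 to 51%) and a median transcript of 2579 bases, and the 10 above had 46.4% (36.2 to 65.6%) and 2096.5 bases (all genes tested, 48.4% and 3128 bases). With an offset that corrects each library for length and GC content, the median log2 fold change was -1.29 for those below (-1.24 without the offset) and 0.88 for those above (0.98 without it). Among single members above DMSO, the offset took POLB from 1.12 to 0.78, MPG from 1.39 to 1.12 and APEX1 from 0.33 to 0.16.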

How the data were processed

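The deposited values are raw whole-number read counts for human Ensembl genes, judged from the numbers. The aligner, counter, strand setting and annotation were not given in the sources used here. GRCm38 and mm10, which are mouse builds, stand in the submitters' processing notes, but all 20263 identifiers are human and 0 are mouse. Symbols were matched for 20148 identifiers, and the other 115 rows held 0.102% of counts. Coordinates and transcript lengths (longest principal isoform) come from the GENCODE 29 annotation of GRCh38 by identifier, and promoters from RefSeq. The authors' second table repeated the DMSO counts (40526 of 40526 values identical). A further 2 columns matched no sample label and were left out.

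Totals were 34774542 and 37754168 counts in DMSO and 40218240 and 36886858 in YW-LF, so 1 count equals 0.0249 to 0.0288 CPM. The lowest count of a member in any library was 56 (NEIL1), and all 38 passed the count filter. Chi-square per degree of freedom between replicates was 257 in DMSO and 596 in YW-LF, far above sampling noise.

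Genes were tested with edgeR 4.0.16 (R 4.3.3) by a quasi-likelihood F-test on the 4 libraries with group as the only term, after filterByExpr (13816 genes kept) and TMM scaling. P-values were adjusted by Benjamini-Hochberg over these genes, and 0.05 was the limit for a call. Dividing a log2 fold change by the square root of F gave its SE. Log2 CPM used a prior count of 2. The steps were tested on simulated data. Alternatives were DESeq2 1.42.0, limma-voom (limma 3.58.1), other scalings and count filters, a length and GC offset (splines with 5 degrees of freedom), a replicate block, and leaving out each library.

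The members and lists were chosen with earlier results of these data known, and no list was tested as a set. The naming rule took, per pathway, the 4 members of lowest p and the member of highest level per length, and the 6 partner genes of lowest p.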

Additional observations from a re-analysis of the deposited data

How the results depend on the processing

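In edgeR 0 genes were called, and 0 with limma-voom, another scaling, mitochondrial genes removed, the length and GC offset, or at least 10 counts in all 4 libraries. DESeq2 called 841 genes higher and 623 lower, among them 2 and 3 members. A total count of at least 1 gave 155 and 120 genes (0 members). The replicate block gave 186 and 145 genes (0 members), and the replicate block with the length and GC offset 638 and 556 genes, with 1 member higher (LIG4) and 5 lower (MSH6, NEIL3, PARP1, PARP2 and UNG). The labels tie replicate numbers to nothing, so the block is not known to be a pairing of samples. Same-numbered libraries deviated together with a correlation of 0.037 over genes. With so few libraries this value cannot show whether cultures were handled in pairs. Leaving out 1 library gave 46 to 2963 genes higher and 16 to 2919 lower, with 0 to 6 members higher and 0 to 7 lower. Such a fit has fewer samples and takes the spread between libraries from the group that keeps its pair. The cause of the differing counts was not tested.

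Leaving out 1 library moved the median log2 fold change of the 38 genes between -0.12 and 0.020. That of base excision ranged from -0.27 to 0.055 (0.055 and 0.048 when the first or second YW-LF library was dropped), and was -0.011 with library size only. The ranges were -0.21 to 0.32 in nucleotide excision, -0.60 to 0.093 in mismatch repair and -0.48 to 0.22 in end joining. Library size as the only scaling moved the median of all genes to 0.16 from 0.06.

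Among members that the main fit did not call, signs turned for MBD4 with library size only (0.090). With the length and GC offset they turned for LIG3 (0.0034), ERCC2 (0.15) and XRCC4 (-0.32). When the replicate block was added to that offset, they turned for ERCC2 (0.051) and XRCC4 (-0.36). Signs also turned on leaving out 1 library, with ranges of -0.70 to 0.055 for NTHL1, -0.98 to 0.28 for NEIL1, -0.54 to 0.25 for MBD4, -0.79 to 0.093 for LIG3, -0.68 to 0.24 for XPA, -0.21 to 0.75 for ERCC1 and -0.67 to 0.32 for ERCC2. The ranges were -0.080 to 0.49 for ERCC4, -2.38 to 0.46 for ERCC5, -0.20 to 0.74 for MLH3 and -0.42 to 0.12 for PMS1. They were -0.60 to 0.61 for PMS2, -0.84 to 0.21 for XRCC5, -0.48 to 0.67 for XRCC6 and -0.30 to 0.30 for XRCC4. Not all of these values were near 0: without YW-LF replicate 1, ERCC1 was at 0.75 and ERCC5 at -2.38. No sign turned for any other member in the alternatives run. These members include NEIL3, PARP1, PARP2, MSH6, MPG and LIG4, but also members nearer to 0 such as RAD23B, SMUG1 and APEX1.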

Other observations

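Exons of 17 of the 38 members overlap those of another counted gene, and values of 5 such neighbours, chosen after their values were seen, are given here. PIP4P1, opposite APEX1, was at 14.9 and 21.3 CPM in DMSO and 28.3 and 80.3 CPM in YW-LF, above DMSO like APEX1. TSC2, opposite NTHL1, was at 83.2 and 107 CPM in DMSO and 57.3 and 88.6 CPM in YW-LF. IFT122, opposite MBD4, was at 23.7 and 30.8 CPM in DMSO and 13.6 and 17.5 CPM in YW-LF, below DMSO while MBD4 overlapped. SUV39H2, opposite DCLRE1C, lay below DMSO (log2 fold change -0.78, SE 0.43) whereas DCLRE1C lay above. TADA3, opposite OGG1, lay above DMSO (0.61, SE 0.37) whereas OGG1 lay below. How far reads of such pairs were shared was not tested.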
